A study of Mus musculus with 13 samples.

Results

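The genes described here carry the signal of noradrenaline from the surface of the brown adipocyte to protein kinase A (PKA). They are 9 of the 42416 gene identifiers counted in interscapular brown adipose tissue (iBAT) of 13 mice. They were taken by symbol, and each symbol matched 1 Ensembl identifier. The adrenergic receptors are Adrb1, Adrb3 and Adra1a, the G protein is Gnas, the adenylyl cyclases are Adcy3 and Adcy6, and the PKA subunits are Prkaca, Prkacb and Prkar2b. All 9 had more than 1 count per M counts (CPM, M as in Mb) in at least 5 libraries, as did 13360 genes in all, which were tested.

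Each library came from the iBAT of 1 mouse. In both groups Axl was floxed (loxP-Axl-loxP), the mice were housed at room temperature on a high-fat diet (HFD), and tamoxifen was given every 3 weeks. The 8 iFAXLKO mice were also Cre positive, and the 5 WT mice were Cre negative, so that WT stands for floxed mice without Cre and not for mice with an unmodified Axl. Per the methods of the study, the Cre is an Adipoq-CreERT2 transgene, which is active in adipocytes after tamoxifen, the controls were littermates, and the mice were female. The age at sampling is not given in the sources used here. The comparison asks whether induced Cre activity against Axl in adipocytes of HFD-fed mice goes with other transcript levels of this pathway.

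As background, noradrenaline from sympathetic nerves binds β-adrenergic receptors on brown adipocytes. The stimulatory G protein then activates adenylyl cyclases, which make cyclic AMP (cAMP). Binding of cAMP to the regulatory subunits of PKA frees the catalytic subunits, which phosphorylate lipolytic proteins and transcription factors, and in this way cold raises lipolysis and heat production. α1-adrenergic receptors act through another G protein and calcium.

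Libraries held 22.44 to 32.6 M counts. Axl itself was no lower under the iFAXLKO label, at 33.1 ± 6.16 CPM (SD, n = 8) with 27.8 ± 3.82 CPM (SD, n = 5) in WT (log2 fold change 0.25, edgeR adjusted p = 0.699), so the groups are named below by their labels. The fibroblast score of a library is the mean log2 CPM of its fibroblast markers. With this score as a covariate, the value for Axl was -0.24, which did not pass either. The groups share only a narrow range of the score, so this fit hardly separates it from the label. For iFAXLKO mice the paper shows AXL protein in the mature fraction of inguinal white fat. The counts here are of whole iBAT, where Axl RNA of adipocytes and of other cells cannot be told apart. Brown adipocyte markers were present in all 13 libraries, with a summed level of 15632.9 to 20479.4 CPM in those labelled iFAXLKO and 17544.4 to 26280.2 CPM in WT. None of the 5 sympathetic neuron markers passed the filter, and their sum did not exceed 0.22 CPM. The 10 skeletal muscle markers summed to between 2.95 and 5214.0 CPM in a library, with overlapping ranges in the groups. The 8 fibroblast markers summed to 490.4 to 1123.6 CPM in the libraries labelled iFAXLKO and 355.4 to 653.4 CPM in WT. WT replicate 2 stood apart. Its long transcripts were low relative to its short ones (a log2 difference of -0.775, against -0.101 to 0.311 in the other 12), and its brown adipocyte sum was the highest of the 13 libraries. Results that rest on it are given with and without it.

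The 9 genes spanned a wide range of levels. Levels of different genes were compared as CPM per kb of exon, over the 13 libraries. Gnas was highest at 439.2 ± 58.7 (SD, n = 13), above 99.2% of the genes tested. Prkar2b followed with 304.7 ± 34.0, then Adrb3 with 161.3 ± 30.9 and Prkaca with 118.9 ± 14.98 CPM per kb. These 4 genes lay above at least 97.3% of the genes tested. Adcy3 reached 52.1 ± 16.8 and Adcy6 40.5 ± 3.37 CPM per kb. Adra1a, with 11.9 ± 1.77, Prkacb, with 6.73 ± 0.821, and Adrb1, with 4.39 ± 1.40 CPM per kb, were the lowest, and Adrb1 lay above 52.8% of the genes tested.

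In this order 4 pairs of neighbours had overlapping ranges over the libraries. Gnas and Prkar2b overlapped although Gnas was higher in each of the 13 libraries, and the same held for Prkacb over Adrb1. Adrb3 exceeded Prkaca in 12 of 13 libraries, and Adcy3 exceeded Adcy6 in 10 of 13. With the length of the longest transcript in place of all exons the order was the same, whereas the ratio of Gnas to Prkar2b went from 1.44 to 3.78, since Gnas has many alternative first exons and its annotated exons add up to 11186 bases, against 3947 bases for its longest transcript.

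**Figure D1:**
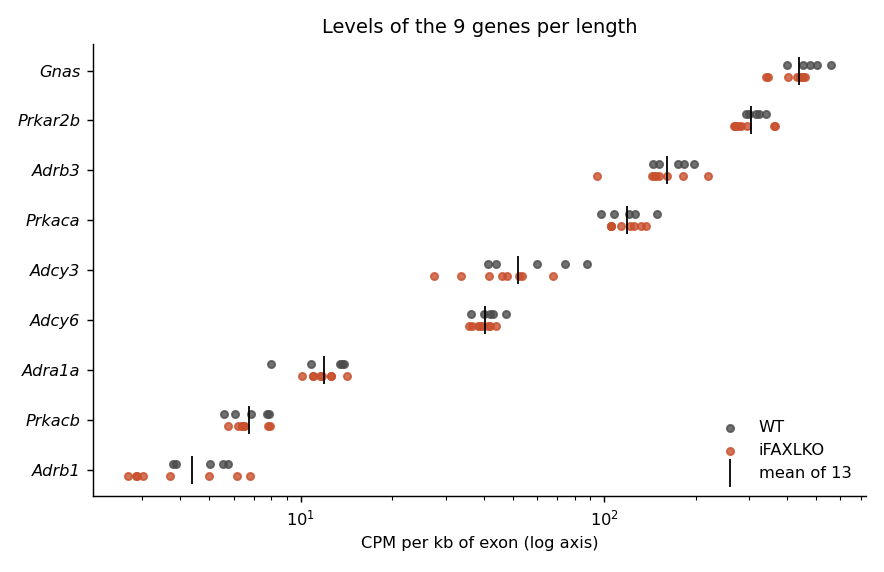
Levels of the 9 genes as CPM per kb of exon, on a log axis. Each point is a library, WT in grey above and iFAXLKO in red below, and the bar is the mean of all 13. Means run from 4.39 for Adrb1 to 439.2 for Gnas, and the groups overlap for each gene.

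Among the receptors, Adrb3 (ENSMUSG00000031489, GRCm38 chromosome 8, 27225776 to 27250616, minus strand) encodes the β3-adrenergic receptor, the main β-adrenergic receptor of rodent adipocytes. It stood at 590.2, 666.3, 486.9, 511.2 and 619.2 CPM in WT replicates 1 to 5. Those labelled iFAXLKO ran from 319.7 to 742.9 CPM with a median of 506.2. They held both the lowest library, replicate 7, and the highest, replicate 2, and 5 of the 8 lay within the WT range. The means were 525.9 ± 120.1 CPM (SD, n = 8) and 574.7 ± 74.7 CPM (SD, n = 5), and the fitted log2 change was -0.13 (SE 0.15, edgeR adjusted p = 0.910). Leaving out iFAXLKO replicate 2 or 7 gave -0.22 or -0.05, and leaving out WT replicate 2 gave -0.07. An antisense gene, Gm45470, overlaps 24.85% of the exon length of Adrb3 and had at most 675 counts in a library, whereas Adrb3 had at least 8510. The strand setting of the counting is not given, so reads of the 2 genes cannot be told apart.

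Adrb1 (ENSMUSG00000035283, chromosome 19, 56722199 to 56733113, plus strand) encodes the β1-adrenergic receptor, which in brown fat is also found on precursor cells. In WT replicates 1 to 5 it was at 13.1, 18.7, 19.5, 12.8 and 17.0 CPM. The libraries labelled iFAXLKO had a median of 11.3 CPM, with 5 of 8 below each WT library and 2, replicates 6 and 8 with 23.0 and 20.9 CPM, above each of them. So the spread was wide, from 9.14 to 23.0 CPM, and the groups overlapped. The means were 14.0 ± 5.53 CPM (SD, n = 8) and 16.2 ± 3.13 CPM (SD, n = 5), and the fitted log2 change was -0.21 (SE 0.24, edgeR adjusted p = 0.906). It was -0.35 and -0.32 without iFAXLKO replicates 6 and 8, and -0.12 without WT replicate 3. Counts of Adrb1 lay between 225 and 663 per library.

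Adra1a (ENSMUSG00000045875, chromosome 14, 66635251 to 66771168, plus strand) encodes the α1A-adrenergic receptor. Values in WT replicates 1 to 5 were 117.8, 69.7, 94.4, 121.3 and 119.5 CPM, and the lowest of these is replicate 2. Under the iFAXLKO label values were 88.2 to 123.9 CPM with a median of 101.5. Of these 8 libraries 7 lay within the WT range. The log2 fold change was -0.02 (SE 0.12, edgeR adjusted p = 0.989), and it was -0.13 without WT replicate 2. Adra1a varied closely with the length tilt of the library, that is the level of long relative to short transcripts. Their correlation was 0.89 over the 13 libraries with group means subtracted (permutation p = 0.0002, adjusted over the 9 genes 0.0018; rho = 0.80, adjusted p = 0.0106). It was 0.71 without WT replicate 2 and 0.76 without WT replicates 1 and 2, which lie farthest from the median tilt. With the tilt as a covariate, an alternative chosen after seeing the data, the log2 fold change of Adra1a was again -0.02.

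Gnas (ENSMUSG00000027523, chromosome 2, 174284320 to 174346744, plus strand) encodes the stimulatory G protein α subunit, together with other products of an imprinted locus that gene counts do not separate. Its WT replicates 1 to 5 had 4481.0, 6259.5, 5334.4, 5044.9 and 5623.7 CPM. In those labelled iFAXLKO it was at 3820.0 to 5123.5 CPM with a median of 4890.7. All 8 lay below the WT mean, 2 of them (replicates 2 and 7) lay below each WT library, and 6 lay within the WT range, above WT replicate 1. The means were 4640.3 ± 518.3 CPM (SD, n = 8) and 5348.7 ± 661.6 CPM (SD, n = 5). The libraries labelled iFAXLKO thus stood at 86.8% of WT, a log2 fold change of -0.20 (SE 0.10) with an edgeR p of 0.0615 and an adjusted p of 0.698.

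The difference in Gnas did not pass the test across genes, and a 2-sided exact permutation test on the difference of means gave an unadjusted p of 0.0575. In bulk tissue, fewer cells of a type and less RNA per cell cannot be told apart. With the fibroblast score of a library, group means subtracted, Gnas had r = -0.54 (permutation p = 0.0584, adjusted p = 0.522; rho = -0.41, adjusted p = 0.580), and with this score as a covariate its log2 fold change was -0.01. With the brown adipocyte score it had r = 0.66 (permutation p = 0.0159, adjusted over the 9 genes 0.143; rho = 0.55, adjusted p = 0.258). This value was 0.43 after leaving out WT replicate 2 and iFAXLKO replicate 7, whose brown scores lie farthest from the median, and 0.60 and 0.80 within the 6 libraries of lowest library number and the other 7. The brown score ran from 9.061 to 9.278 on the log2 scale in the libraries labelled iFAXLKO and from 9.226 to 9.447 in WT. The fibroblast scores of the groups also shared only a narrow range, so the fit with that score hardly separates it from the label. The part of either score in the difference in Gnas was not tested. The log2 fold change of Gnas was -0.14 without WT replicate 2, the library with the highest Gnas. Nespas and Gm20721, on the other strand, overlap 8.83% and 13.13% of the exon length of Gnas and had at most 0 and 512 counts, against at least 101675 counts of Gnas.

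Of the 2 cyclases, Adcy3 (ENSMUSG00000020654, chromosome 12, 4133103 to 4213525, plus strand), a cyclase of the cell membrane and of primary cilia, differed most between the groups among the 9 genes, and it also varied widely within them. Replicates 1 to 5 of WT had 374.4, 259.0, 549.6, 462.7 and 275.4 CPM. The libraries labelled iFAXLKO had 171.4 to 424.1 CPM with a median of 292.2. Replicates 2 and 6 of these, with 171.4 and 211.0 CPM, lay below each WT library, while the other 6 lay within the WT range. The means were 289.01 ± 78.0 CPM (SD, n = 8) and 384.2 ± 123.6 CPM (SD, n = 5), or 75.2% of WT. Fitted over all libraries the log2 fold change was -0.41 (SE 0.21, 95% interval -0.87 to 0.04) with an edgeR p of 0.0736 and an adjusted p of 0.709.

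This value depended on single libraries. Without WT replicate 3, the highest library, it was -0.23, and without WT replicate 2 it was -0.52. In the 6 libraries of lowest library number the mean difference of log2 CPM was -0.09, and in the other 7 it was -0.62. Cenpo, on the other strand, overlaps 22.09% of the exon length of Adcy3 and had at most 172 counts, against at least 4681 counts of Adcy3.

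Adcy6 (ENSMUSG00000022994, chromosome 15, 98589973 to 98610076, minus strand), a cyclase that calcium inhibits, was the steadiest of the 9 genes within groups. In WT replicates 1 to 5 it was at 284.8, 246.9, 291.3, 272.5 and 322.6 CPM, and the libraries labelled iFAXLKO had 242.4 to 299.0 CPM with a median of 266.4. Only replicate 5 of the latter lay outside the WT range, just below it. The log2 fold change was -0.08 (SE 0.08, 95% interval -0.25 to 0.09, edgeR adjusted p = 0.891), and it ran from -0.12 without WT replicate 2 to -0.03 without WT replicate 5. Its coefficient of variation within groups was 8.21%, and 15.1% of the 703 genes of a level within 2-fold of it varied less. For Adcy3 this coefficient was 29.8%, with 94.4% of the genes of like level varying less, and for Adrb1 it was 32.3%, with 95.9% varying less.

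The PKA subunits had the smallest differences together with Adra1a and Adcy6. Prkaca (ENSMUSG00000005469, chromosome 8, 83972993 to 83996443, plus strand) encodes the catalytic subunit α. Values in WT replicates 1 to 5 were 312.8, 370.4, 266.9, 241.7 and 300.5 CPM, and the libraries labelled iFAXLKO had 262.1 to 342.1 CPM with a median of 292.7. All 8 lay within the WT range. The log2 fold change was -0.02 (SE 0.11, 95% interval -0.25 to 0.20, edgeR adjusted p = 0.986), and it was 0.07 without WT replicate 2.

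Prkacb (ENSMUSG00000005034, chromosome 3, 146729574 to 146812990, minus strand) encodes the catalytic subunit β. Its WT replicates 1 to 5 had 67.8, 48.8, 53.4, 59.9 and 68.7 CPM, and the libraries labelled iFAXLKO had 50.4 to 69.2 CPM with a median of 56.6. Of these 8 libraries 7 lay within the WT range, and replicate 6 was just above it. The log2 fold change was -0.03 (SE 0.10, 95% interval -0.24 to 0.19, edgeR adjusted p = 0.981).

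Prkar2b (ENSMUSG00000002997, chromosome 12, 31958476 to 32061296, minus strand) encodes the regulatory subunit IIβ, the main regulatory subunit of adipose tissue. Replicates 1 to 5 of WT had 1241.2, 1068.4, 1092.6, 1178.0 and 1150.9 CPM. With the iFAXLKO label there were 979.6 to 1337.3 CPM with a median of 1024.0, with 5 of 8 below each WT library and 2, replicates 6 and 8, above each of them. So the groups overlapped although a single library labelled iFAXLKO, replicate 2, fell within the WT range. The means were 1091.7 ± 149.7 CPM (SD, n = 8) and 1146.2 ± 68.9 CPM (SD, n = 5), and the fitted log2 change was -0.07 (SE 0.10, 95% interval -0.28 to 0.14, edgeR adjusted p = 0.931).

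**Figure D2:**
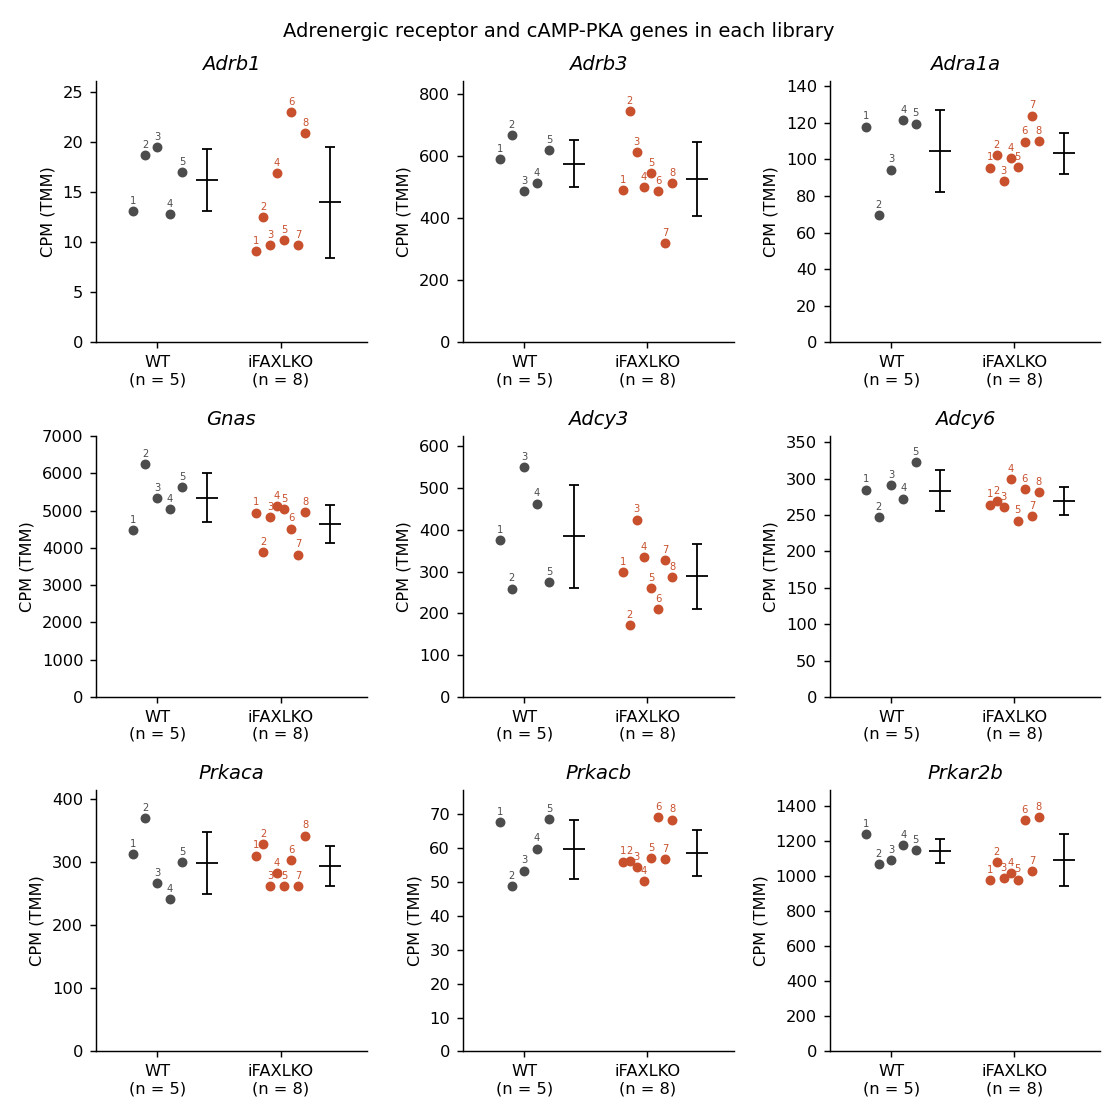
CPM (TMM) of the 9 genes in each library, in panels with their own axis from 0. Points are libraries marked with their replicate number, and the black bars give mean and SD of 5 WT and 8 iFAXLKO libraries. The groups overlap in each panel, all 8 iFAXLKO values of Gnas lie below the WT mean of 5348.7, and iFAXLKO replicates 6 and 8 are the highest for both Adrb1 and Prkar2b.

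Across the comparison, none of the 9 genes passed an adjusted p of 0.05 in edgeR, where 17 of 13360 genes did (0.127%). None passed in DESeq2, which called 0.501% of genes, or in limma-voom with quality weights, which called 0.180%. None had an unadjusted p under 0.05 in edgeR, as 7.38% of genes had, and for none did the CPM ranges of the groups stand apart, as they did for 0.434% of genes. The exact permutation test on mean CPM, unadjusted, gave 0.0575 for Gnas, 0.115 for Adcy3 and 0.274 or more for the other 7 genes. The fitted log2 fold changes ran from -0.41 to -0.02 with a median of -0.08, against a median of -0.01 over all genes tested. All 9 values were below 0, as were 7158 of the 13360 genes, but with upper quartile factors those of Adra1a and Prkaca were 0.01.

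The intervals set how large a difference these libraries leave room for. For the PKA subunits, Adra1a and Adcy6 the 95% interval of the fold change lay between 0.82 and 1.18. It ran from 0.73 to 1.14 for Adrb3 and from 0.75 to 1.01 for Gnas. For Adrb1, from 0.61 to 1.23, and for Adcy3, from 0.55 to 1.03, it was wider.

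Within the 6 libraries of lowest library number (4 labelled iFAXLKO, 2 WT) and the other 7 (4 and 3), the mean difference of log2 CPM was below 0 in both for Adrb1 (-0.42 and -0.13), Adrb3 (-0.12 and -0.23), Gnas (-0.18 and -0.23) and Adcy3. For the other 5 genes the values of the 2 sets had opposite signs, and none was larger in size than 0.21. The numbers come from the sample labels, which do not say what they stand for.

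**Figure D3:**
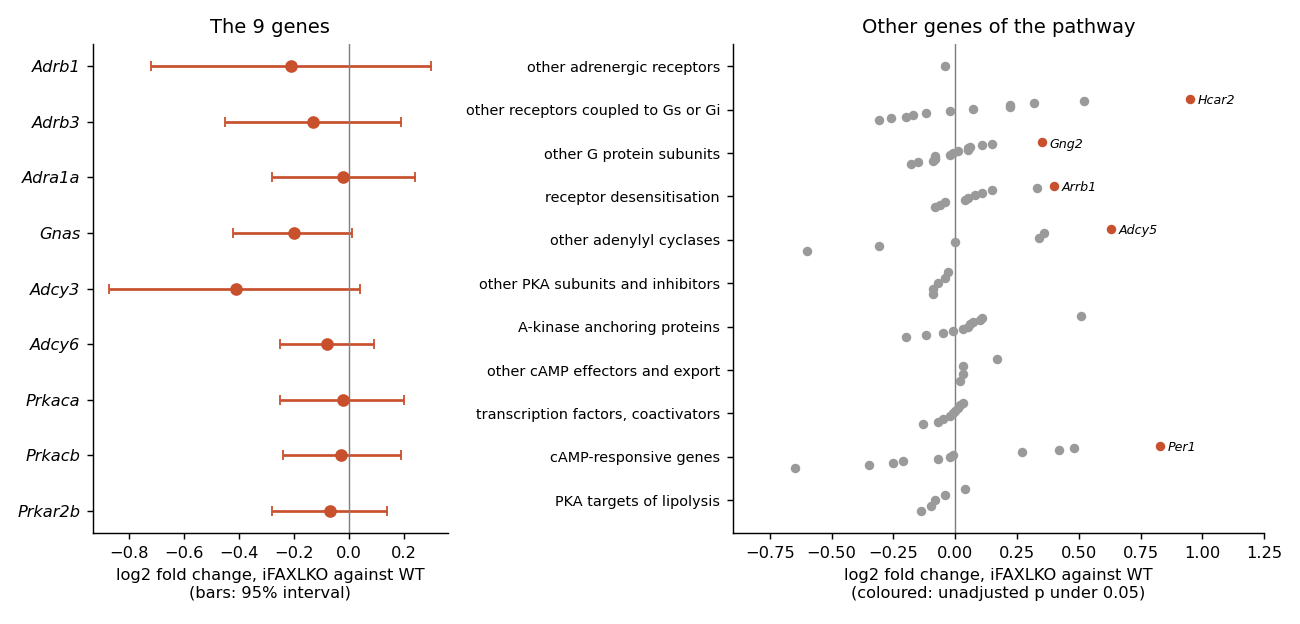
Log2 fold changes of iFAXLKO against WT from edgeR. On the left, the 9 genes with their 95% intervals, each of which includes 0; on the right, the 89 other genes of the pathway that were tested, by list, with the 5 of unadjusted p under 0.05 in red and named.

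The share of each gene within its family needs no scaling between libraries. Of the summed β-adrenergic receptors Adrb1 and Adrb3, taken per kb of exon, Adrb3 made up 97.3 ± 1.14% (SD, n = 8) in the libraries labelled iFAXLKO and 97.2 ± 0.640% (SD, n = 5) in WT. Prkaca made up 94.6 ± 0.538% and 94.5 ± 1.14% of the catalytic subunits Prkaca and Prkacb. Prkar2b made up 86.4 ± 1.31% and 86.4 ± 0.517% of the 4 regulatory subunits. Most of the remainder was Prkar1a, a subunit of type I PKA, with 12.2 ± 1.07% and 12.2 ± 0.523%.

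The makeup of the 10 adenylyl cyclases varied more. Adcy3 and Adcy6 together made up most of it, and either could lead, since Adcy3 ranged from 34.5% to 61.5% and Adcy6 from 30.0% to 49.8% over the libraries. Adcy3 took 46.1 ± 6.83% in the libraries labelled iFAXLKO and 52.5 ± 7.68% in WT. Adcy6 took 40.7 ± 5.94% and 37.2 ± 6.76%. None of the 5 shares passed the 2-sided exact permutation test after adjustment. The lowest p was 0.144, for Adcy3 (-6.41 percentage points, adjusted p over the 5 shares 0.719), and the other adjusted p-values were 0.857 or above. With 1 library left out, the difference ran from -8.87 to -4.16 points for Adcy3 and from 1.67 to 5.67 points for Adcy6. The ratio of catalytic to regulatory PKA subunits, in CPM per kb, was 0.363 ± 0.0333 (SD, n = 8) and 0.350 ± 0.0636 (SD, n = 5).

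**Figure D4:**
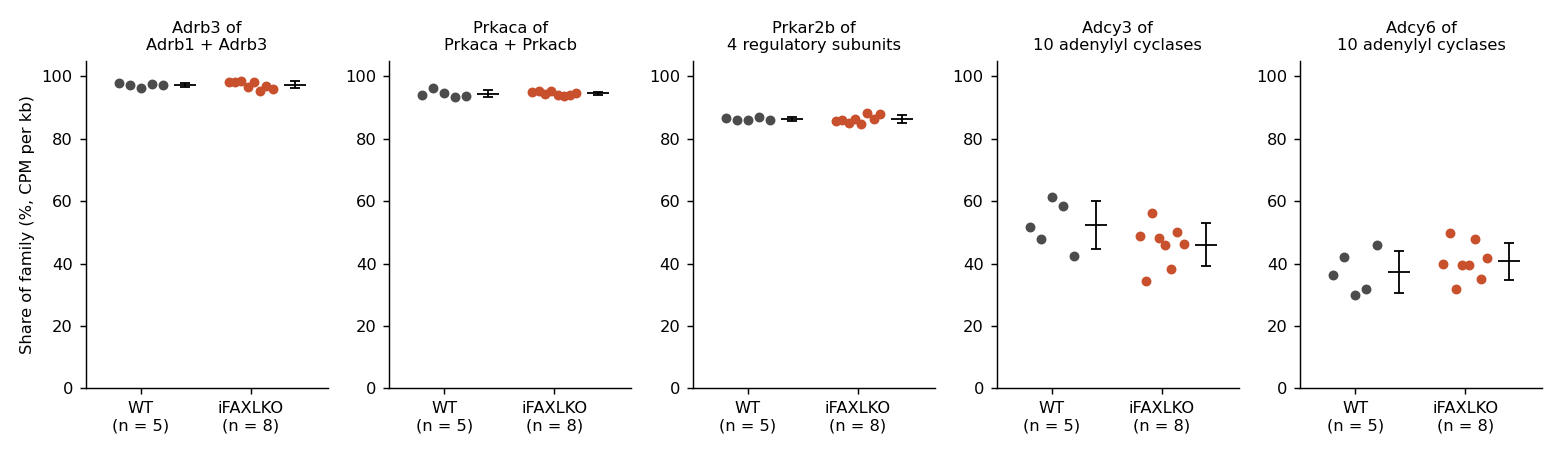
Share of Adrb3, Prkaca, Prkar2b, Adcy3 and Adcy6 in their families (%, from CPM per kb of exon), on axes from 0. Points are libraries, and black bars give mean and SD of 5 WT and 8 iFAXLKO libraries. Adrb3, Prkaca and Prkar2b each hold 84.7% or more of their family in every library, while Adcy3 and Adcy6 spread widely in both groups.

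The 9 genes did not vary as 1 unit between mice. Over the 36 pairs of genes, the correlation of log2 CPM across the 13 libraries with group means subtracted had a median of 0.06, and 14 pairs were negative. The closest pair was Prkacb and Prkar2b (r = 0.80, permutation p = 0.00091, adjusted over 36 pairs 0.0328; rho = 0.73, adjusted p = 0.143). It was the only one of the 36 pairs with an adjusted p under 0.05, by r and not by rho. The value was 0.81 after leaving out the 2 libraries with Prkacb farthest from its median, 0.82 without WT replicate 2, and 0.75 and 0.81 within the 6 libraries of lowest number and the other 7. Libraries 6 and 8 of those labelled iFAXLKO were the highest of that group for both genes, and without them r was 0.65.

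Both genes were also higher in libraries of higher length tilt. For Prkacb r was 0.73 (permutation p = 0.0005, adjusted over the 9 genes 0.00225) and rho was 0.79 (adjusted p = 0.0106). For Prkar2b r was 0.42 (permutation p = 0.154, adjusted p = 0.231) and rho was 0.74 (adjusted p = 0.0186). Without WT replicate 2 these r were 0.82 and 0.66. With the linear part of the tilt removed, the correlation of Prkacb with Prkar2b was 0.79. Adcy3 and Prkaca varied in opposite directions (r = -0.68, rho = -0.69, permutation p = 0.0111, adjusted p = 0.118). Adrb1 and Prkar2b had r = 0.66 and rho = 0.62 (adjusted p = 0.118 and 0.181), which rested on few libraries, since it was -0.23 after leaving out the 2 libraries with Adrb1 farthest from its median, iFAXLKO replicates 6 and 8.

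**Figure D5:**
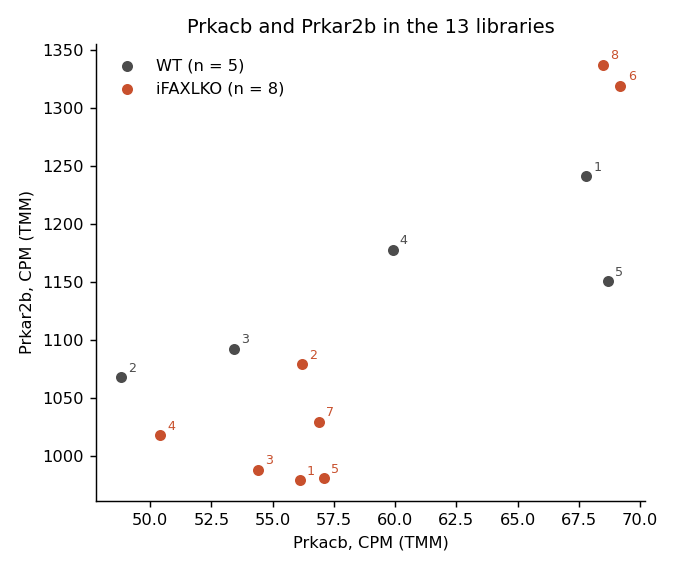
Prkacb against Prkar2b, both in CPM (TMM), in the 13 libraries; neither axis starts at 0. Points are libraries with their replicate number, 5 WT in grey and 8 iFAXLKO in red. Libraries with more Prkacb tended to have more Prkar2b in both groups, and iFAXLKO replicates 6 and 8 lie at the upper right.

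Since Prkar2b and Prkacb were the most closely correlated pair, their promoters are shown, from 250 to 51 bases before the outermost RefSeq start (GRCm38.p6, minus strand for both, 5′ to 3′). Capitals mark TGACG on either strand, the shorter form of the cAMP response element.
Prkar2b, chr12:32061328-32061527: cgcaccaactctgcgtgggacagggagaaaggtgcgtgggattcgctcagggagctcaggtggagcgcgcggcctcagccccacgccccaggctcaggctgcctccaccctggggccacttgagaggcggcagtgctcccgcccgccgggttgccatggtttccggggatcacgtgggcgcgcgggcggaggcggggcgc
Prkacb, chr3:146812997-146813196: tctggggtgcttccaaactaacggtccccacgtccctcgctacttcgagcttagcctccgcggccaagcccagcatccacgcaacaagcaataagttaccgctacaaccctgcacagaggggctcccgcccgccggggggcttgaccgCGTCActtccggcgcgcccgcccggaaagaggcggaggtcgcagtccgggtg
The full element TGACGTCA was in neither window, nor in any of the 14 promoter entries of the 6 genes that had one (Adrb1, Gnas, Adcy3, Prkaca, Prkacb and Prkar2b), against 0.828% of 32851 mouse promoters over the same window. TGACG or its reverse complement CGTCA, which the full element also holds, was in 5 of the 14 entries and in 12.7% of all promoters. Several entries can belong to 1 gene, with 4 of the 14 and 2 of the 5 from Gnas, so the entries are not independent. In Prkacb the match begins 102 bases before the start, and Prkar2b has none. These matches describe the letters in the window alone.

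Other cells of the tissue were set beside the 9 genes by the skeletal muscle and fibroblast scores, the mean log2 CPM of their markers. Of the 18 relations none had an adjusted p under 0.05, by r or by rho. The closest was that of Adcy6 with the muscle score (r = -0.63, permutation p = 0.0196, adjusted p = 0.353; rho = -0.53, adjusted p = 0.580), and r was -0.51 after leaving out WT replicate 5 and iFAXLKO replicate 8, whose scores lie farthest from the median. Adcy6 was also lower with more muscle within both sets of library numbers (r = -0.51 and -0.71). Adrb1 had r = -0.48 with this score (adjusted p = 0.522). In a fit that held the fibroblast score the log2 fold change turned to 0.18 for Adrb1, 0.12 for Prkaca, 0.13 for Prkacb and 0.03 for Prkar2b, while that of Adcy3 was -0.48. The fibroblast score itself was higher in the libraries labelled iFAXLKO, at 5.103 to 5.797 on the log2 scale against 4.436 to 5.198 in WT, so this fit separates the score from the label only over the narrow range that the groups share.

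For each gene, the 3 most similar genes were those with the highest correlation of log2 CPM over the 13 libraries, group means subtracted, among the genes tested. Adrb3 was closest to Mthfd2l (r = 0.94), Acsf3 and Hdac11, and Adrb1 to Ppp1r3d (r = 0.90), Lyrm9 and Stambpl1. Adra1a was closest to Cbx5 (r = 0.98), Arnt and Tep1, and without WT replicate 2 the correlation with Cbx5 was 0.94. Gnas was closest to Gipc1 (r = 0.90), Gm20609 and Gm48287. Adcy3 came with Pawr (r = 0.92), Gabre and Hip1r, and Adcy6 with Mical3 (r = 0.95), Trim2 and Rai1. Of the PKA subunits, Prkaca came with Mapkap1 (r = 0.94), Stom and Ripk2, Prkacb with Efcab14 (r = 0.97), Pcmtd1 and Itpr1, and Prkar2b with Hyal1 (r = 0.94), Mtm1 and Stam2. None of the 9 genes was among the closest 3 of another. These are the highest of 13359 values for each gene, so they are high in part by selection.

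The other genes of the pathway were followed in 11 lists of 101 genes, of which 89 were tested. None passed the adjusted p in edgeR, DESeq2 or limma-voom. With an unadjusted p under 0.05, which 7.38% of all genes had, 5 were higher in the libraries labelled iFAXLKO and 0 lower. Of the 13360 genes tested, 513 were higher there and 473 lower at this limit. Markers of some other cells were higher there too. Of 5 macrophage markers 5 had a log2 fold change above 0, 4 with an unadjusted p under 0.05, and their sum had a mean of 97.8 CPM there and 73.0 CPM in WT. All 8 fibroblast markers were above 0 with an unadjusted p under 0.05. None of these 13 markers passed the adjusted p in edgeR, while DESeq2 called 2 of the fibroblast markers. Markers of skeletal muscle went the other way, with 10 of 10 below 0 (median -0.27), 0 of them with an unadjusted p under 0.05. Of the endothelial markers 4 were above 0 and 1 below. Brown adipocyte markers were mostly lower, with 9 below 0 and 1 above (median -0.11), 1 of those below with an unadjusted p under 0.05. The tested markers of pericytes and smooth muscle (5), Schwann cells (4) and white adipocytes (3) were all above 0. The part of any of these markers in the 5 genes was not tested. For the 89 pathway genes the median log2 fold change was -0.01, the same as over all genes tested.

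Among the receptors beside the 9 genes, Adra1d was the 1 of the 5 adrenergic receptors listed that passed the filter, with 13.5 ± 4.44 CPM (SD, n = 8) and 14.0 ± 3.47 CPM (SD, n = 5). Adra1b, Adra2a, Adra2b and Adra2c did not pass it. Of the 12 other receptors tested that couple to stimulatory or inhibitory G proteins, Hcar2, a receptor for hydroxybutyrate and nicotinic acid that inhibits cyclases, had means of 3.62 ± 1.53 CPM (SD, n = 8) and 1.88 ± 0.552 CPM (SD, n = 5), and 8 of 8 libraries labelled iFAXLKO were above the WT mean. Its log2 fold change was 0.95 (SE 0.27, edgeR adjusted p = 0.407). A fit that held the fibroblast score, which hardly separates it from the label, gave 0.32.

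Of the 15 other G protein subunits the lowest p was that of Gng2, a γ subunit, with a log2 fold change of 0.35 (SE 0.14, edgeR adjusted p = 0.583). Of the 10 genes of receptor desensitisation tested, Arrb1, which encodes β-arrestin 1, had 58.0 ± 12.1 CPM (SD, n = 8) and 44.1 ± 5.73 CPM (SD, n = 5), and the fitted log2 change was 0.40 (SE 0.14, edgeR adjusted p = 0.513). Of the 6 other adenylyl cyclases tested, Adcy5, like Adcy6 a cyclase that calcium inhibits, had 12.8 ± 3.78 CPM and 8.23 ± 2.22 CPM, a log2 fold change of 0.63 (SE 0.20, edgeR adjusted p = 0.490). It took 1.82 ± 0.546% of the summed cyclases in the libraries labelled iFAXLKO and 1.03 ± 0.319% in WT, so its level was low beside Adcy3 and Adcy6. With that score held the values of Gng2, Arrb1 and Adcy5 were 0.09, 0.11 and -0.04, with the same limit.

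The 5 other PKA subunits and inhibitors tested had log2 fold changes of -0.09 to -0.03, with Prkar1a at the lowest p (-0.09, edgeR adjusted p = 0.824). The 11 A-kinase anchoring proteins had -0.20 to 0.51, with Akap10, an anchor that binds both types of PKA, at the lowest p (-0.12, adjusted p = 0.751). The 4 other cAMP effectors and exporters had 0.02 to 0.17, led by Popdc2 (0.17, adjusted p = 0.882). The 9 transcription factors and coactivators had -0.13 to 0.03, led by Atf2 (-0.13, adjusted p = 0.840).

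Downstream, 11 genes known to respond to cAMP had log2 fold changes of -0.65 for Fos to 0.83 for Per1, with a median of -0.02. The value of Fos, an immediate early gene, rested on WT replicate 3, with 12.9 CPM against a WT mean of 4.14, and was 0.45 without it. Per1, which also belongs to the circadian clock, had 63.3 ± 27.5 CPM (SD, n = 8) and 35.7 ± 8.96 CPM (SD, n = 5), and 6 of 8 libraries labelled iFAXLKO were above the WT mean (SE 0.31, edgeR adjusted p = 0.554). With the fibroblast score held, the log2 fold change of Per1 was 0.87. The groups overlap little in this score, and its part in the value of Per1 was not tested. The 5 PKA targets of lipolysis had -0.14 to 0.04, with Lipe, which encodes hormone-sensitive lipase, at the lowest p (-0.14, adjusted p = 0.815).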

How the data were processed

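Counts of reads per gene were deposited by the authors for iBAT of 13 mice, 8 iFAXLKO and 5 WT, in files of 42416 Ensembl identifiers, and were used as deposited. The submitters' processing notes name bcl2fastq 2.20, fastp 0.20.0, STAR 2.7.4a, DESeq2 and GRCm38.p6 and the labels give polyadenylated RNA, whereas the methods of the study describe depletion of ribosomal RNA, Trim Galore and hisat2. Which applies, and the tool and strand setting of the counting, are not given in the sources used here.

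Symbols came from a table of gene names, and positions and lengths from GENCODE M21 (GRCm38, counted from 1). Depth was 22.44 to 32.6 M counts per library, so that a count of 0 allows up to 3 counts, or 0.092 to 0.134 CPM, for counting error alone. Counts of the libraries of a group differed by far more than sampling noise (chi-square per degree of freedom at least 18.41), so each was counted as 1 replicate.

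Genes over 1 CPM in at least 5 libraries were tested with edgeR 4.0.16 (TMM factors, robust quasi-likelihood F test, 2-sided, R 4.3.3), with Benjamini-Hochberg adjustment over the 13360 genes tested and 0.05 as the limit. The script was tested on simulated data. The SE is the size of the log2 fold change divided by the square root of F. Levels are CPM with TMM factors, and a prior count of 2 was added for log2 CPM. The length tilt is the median deviation of genes with a longest transcript of at least 6000 bases less that of genes of at most 2000 bases. Single members and 5 family shares were tested by a 2-sided exact permutation test (smallest possible p 0.000777), and correlations by 100000 random orders.

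The alternatives were DESeq2 1.42.0, limma-voom (limma 3.58.1), upper quartile and RLE factors, totals without the most abundant genes, no filter, the replicate number as a block, covariates, other lengths and each library left out in turn. The length tilt as a covariate, the fit of 10 libraries without the block, and the tests of gene pairs, of the tilt and of the brown adipocyte score were chosen after seeing the data. The members and gene lists were chosen with earlier results of these data known. Named are each member, Axl, the gene of lowest p and those of unadjusted p under 0.05 (up to 4) of each list, and the 3 most similar genes of each member. Receptors below the filter and Fos, Prkar1a and minor cyclases that a sentence needed were named beside these. Some genes of the pathway are not reported here. Promoter sequences are those of RefSeq, and amino acid sequences were not used here.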

Additional observations from a re-analysis of the deposited data

How the results depend on the processing

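None of the 9 genes and none of the 89 other pathway genes was called in edgeR under any alternative run for them, each library left out included, nor in DESeq2 or limma-voom, but the directions of the small differences were not stable. With the fibroblast score as a covariate the log2 fold change was 0.18 for Adrb1, 0.12 for Prkaca, 0.13 for Prkacb and 0.03 for Prkar2b. Upper quartile factors gave 0.01 for Adra1a and 0.01 for Prkaca, and limma-voom gave 0.11 for Prkaca. In the 6 libraries of lowest library number the value was 0.09 for Adra1a and 0.04 for Adcy6, and in the other 7 it was 0.11 for Prkaca, 0.05 for Prkacb and 0.02 for Prkar2b. With each library left out in turn Adra1a ran from -0.13 to 0.04, Prkaca from -0.09 to 0.07 and Prkacb from -0.09 to 0.03, while Adcy3 (-0.52 to -0.23), Gnas (-0.26 to -0.14), Adrb1 (-0.35 to -0.12), Adrb3 (-0.22 to -0.05), Adcy6 (-0.12 to -0.03) and Prkar2b (-0.12 to -0.04) stayed below 0. In percentage points, the difference in share ran from -0.188 to 0.340 for Adrb3, from -0.156 to 0.587 for Prkaca from -0.283 to 0.244 for Prkar2b, from -8.87 to -4.16 for Adcy3 and from 1.67 to 5.67 for Adcy6. Without the 2 libraries farthest from the median muscle score (WT replicate 5 and iFAXLKO replicate 8), r with this score turned to 0.33 for Prkaca and 0.26 for Prkacb. The cause of these turns was not tested.

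The replicate number as a block, over replicates 1 to 5 of both groups, gave 0 members called and 7 genes called in all, against 12 in the same 10 libraries without it and 17 in all 13. In those 10 libraries Adrb1 was -0.49 with the block and -0.47 without it, so the move from -0.21 goes with leaving out iFAXLKO replicates 6 to 8, and Adrb3 was 0.01 without it. Of the 5 same-numbered pairs 4 deviated together (r = 0.39, 0.42, 0.19 and 0.18) and that of replicate 5 did not (r = -0.61). Only WT replicates 2 and 3 correlated best with the iFAXLKO library of their own number, and the labels name no shared origin, so the number was not taken as a pairing. DESeq2 called 67 genes and the fit with the fibroblast score 7. Each of the 9 genes had at least 225 counts in every library.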

Other observations

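The adenylyl cyclases other than Adcy3 and Adcy6 made up a small part of the family, per kb of exon, and several took a larger share in the libraries labelled iFAXLKO. Adcy4 held 6.25 ± 1.05% (SD, n = 8) there and 5.39 ± 0.150% (SD, n = 5) in WT. Adcy9 held 3.42 ± 0.986% and 2.26 ± 0.707%, and Adcy7 held 0.963 ± 0.217% and 0.646 ± 0.232%. Adcy10, the soluble cyclase, went the other way, with 0.488 ± 0.155% and 0.680 ± 0.446%. Adcy1 and Adcy8 did not pass the filter. The level of Adcy4 itself had a log2 fold change of 0.00. Those of Adcy7 and Adcy9 were 0.34 and 0.36, and -0.15 and 0.16 with the fibroblast score, which was higher in the libraries labelled iFAXLKO, held as a covariate. That of Adcy10 was -0.60, and -0.01 with this score held. These shares were not tested, and they sum with those of Adcy3 and Adcy6, so a lower share of one raises the others.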
